A study of Homo sapiens with 18 samples.

Results

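Integrins and laminins are the receptors and ligands by which a cell holds on to its basement membrane. The genes described here are the integrin alpha chains, the integrin beta chains and the laminin chains, chosen by gene symbol alone from the expression table of U2OS-MycER cells. The symbols are ITGA followed by a number, by a number and B, or by D, E, L, M, V or X, ITGB followed by a digit, and LAMA, LAMB or LAMC followed by a digit. This gave 38 of 23399 genes, of which 37 are described, 18 alpha chains, 8 beta chains and 11 laminin chains. U2OS is a human osteosarcoma line, and these cells were engineered to express MycER, a fusion of Myc with the estrogen receptor that 4-hydroxytamoxifen (OHT) activates, so control and treated cells carry the same transgene. Cells were transfected with a pool of siRNAs that silence RAD21, part of the cohesin ring that holds chromatin loops and sister chromatids (siRAD21), or with siRNA against Renilla luciferase, which has no human target (siCtrl). At transfection they were given 400 nM OHT or its solvent ethanol, and RNA was taken 24 or 48 h later. The 8 groups were siCtrl, siRAD21, siCtrl OHT and siRAD21 OHT at each time, with 3 libraries each for siCtrl and siCtrl OHT at 48 h and 2 for every other group. The methods of the study speak of biological replicates of this line but do not say how the cultures were separated, so the p-values measure the spread between these libraries.

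An integrin is a pair of 1 alpha and 1 beta chain that spans the membrane. ITGB1 pairs with many alpha chains, while ITGB5 and ITGB8 pair with ITGAV, ITGB4 with ITGA6, ITGB2 with ITGAD, ITGAL, ITGAM and ITGAX, and ITGB7 with ITGAE. A laminin is a trimer of 1 alpha, 1 beta and 1 gamma chain that assembles into the sheet of the basement membrane, and ITGA3, ITGA6 and ITGA7 are the alpha chains of the laminin receptors. ITGB3 together with ITGAV binds vitronectin and osteopontin and is a well known receptor of bone-resorbing cells, and ITGAV with ITGB8 is known for releasing active TGF-beta from its latent form.

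Expression was measured as eRPKM, exonic read counts divided by transcript length and by the library's total of exonic reads, which allows levels of different genes to be set side by side. Depths were 9647501 to 12678599 reads per library after the removal of PCR duplicates, recovered from the values themselves. Changes are log2 fold changes of eRPKM + 0.5 from a limma fit over all libraries, with p-values adjusted by the Benjamini-Hochberg procedure over 14993 genes. The added 0.5 makes the changes of weakly expressed genes smaller than their ratios. A gene is called a DEG, and is said to rise or fall, when the adjusted p is below 0.05 and the log2 fold change is past 0.5 in either direction. The values are shares of each library, so fewer cells of a kind and less RNA per cell cannot be told apart. RAD21 itself stood at 89.0 to 96.9 eRPKM in siCtrl and 11.2 and 11.3 eRPKM in siRAD21 cells at 48 h, and its log2 fold change was -1.92 at 24 h and -2.99 at 48 h. MYC reads, which do not separate the endogenous gene from the transgene, measured 49.9 to 54.6 eRPKM in siCtrl, 56.4 and 57.5 eRPKM in siRAD21, 42.0 to 49.4 eRPKM in siCtrl OHT and 32.9 and 36.0 eRPKM in siRAD21 OHT cells at 48 h. At 24 h they measured 51.7 and 55.2 eRPKM in siCtrl and 44.6 and 44.8 eRPKM in siRAD21 cells. With OHT at 24 h they measured 41.0 and 41.2 eRPKM in siCtrl and 29.4 and 30.6 eRPKM in siRAD21 cells. The paper reports lower Myc after RAD21 silencing, in mRNA by RT-PCR and in protein. The siRAD21 OHT libraries at 48 h differed from each other by no more than the sampling noise of their reads, with a chi-square per gene of 0.984. The siRAD21 pair at 24 h came close to that noise too, at 1.05, so its spread may also be too small. The other pairs had 1.59 to 3.99. The siRAD21 OHT libraries at 48 h may be technical repeats or 1 library deposited more than once. They count as 1 sample in group means and as 2 in the fit. The SE and adjusted p of the siRAD21 OHT comparisons at 48 h may therefore be too small. All groups share the same estimate of the spread of a gene, so close pairs may also lower the SE of the other comparisons. Averaging the siRAD21 OHT libraries at 48 h in the fit ended 1 call in their comparisons, that of ITGAX in the interaction of siRAD21 and OHT.

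Markers of the mesenchymal lineage were present in part. VIM measured 105 to 129 eRPKM, SPARC 60.6 to 86.4 eRPKM, COL1A1, a chain of the type I collagen of bone, 14.5 to 65.8 eRPKM, the osteoblast factor RUNX2 1.90 to 8.50 eRPKM and ALPL, a phosphatase of osteoblasts, 1.21 to 3.85 eRPKM. COL1A2, the other chain of that collagen, reached at most 0.109 eRPKM, SP7, a lineage factor of osteoblasts, at most 0.487 eRPKM and BGLAP (osteocalcin) at most 1.36 eRPKM. Of the leukocyte markers, PTPRC (CD45) reached at most 0.322 eRPKM, CD3E at most 0.0817 eRPKM, and only CD68, a lysosomal protein, was well expressed. The platelet gene PF4 was at 0 in every library, while GP1BA, the highest of the 4 platelet markers, was at 0.254 to 0.894 eRPKM. The summed level of 4 leukocyte markers was 8.28 to 10.6 eRPKM in siCtrl and 10.3 to 10.7 eRPKM in siRAD21 cells at 48 h, and that of 5 epithelial markers was 18.9 to 20.6 eRPKM and 5.21 to 6.58 eRPKM. For 4 endothelial markers it was 1.73 to 2.16 eRPKM in siCtrl and 2.99 to 3.20 eRPKM in siRAD21 cells at 48 h. The part of any of these lists in the changes of the integrin and laminin chains was not tested.

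Windows of RefSeq promoters (GRCh38.p14, from 250 bases before to 50 bases after a start site) were found for 26 of the 37 genes, 33 windows in all, and none was at hand for the other 11, among them ITGB2, ITGB3 and LAMC3. They were searched on both strands for CACGTG, the E-box that Myc and Max bind, and for GGGCGG, the GC box that reads CCGCCC on the other strand. The E-box stood in 1 of the 33 windows, that of the upstream start of ITGA6, against 7.26% of 35116 windows of all genes. The GC box stood in 19 windows (57.6%), against 45.0%. Those windows belong to 14 of the 26 genes. Some windows of ITGA6 and of LAMB3 overlap, so the same match is counted more than once. The windows printed are those of ITGA6, which rose with siRAD21, of ITGB8, which had the largest fall with both treatments, of ITGA4, which moved opposite to most chains, and of LAMA5, whose rise OHT removed. Letters in capitals are matches to either motif, and each window is written 5′ to 3′ in the direction of its gene.
ITGA6 (chr2:172427086-172427385, + strand): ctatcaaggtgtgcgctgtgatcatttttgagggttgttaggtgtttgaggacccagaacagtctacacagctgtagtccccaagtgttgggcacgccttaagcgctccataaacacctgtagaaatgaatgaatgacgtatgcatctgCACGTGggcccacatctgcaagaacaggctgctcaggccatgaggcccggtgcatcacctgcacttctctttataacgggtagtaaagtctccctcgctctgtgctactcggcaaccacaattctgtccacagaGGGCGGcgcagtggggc
ITGB8 (chr7:20330650-20330949, + strand): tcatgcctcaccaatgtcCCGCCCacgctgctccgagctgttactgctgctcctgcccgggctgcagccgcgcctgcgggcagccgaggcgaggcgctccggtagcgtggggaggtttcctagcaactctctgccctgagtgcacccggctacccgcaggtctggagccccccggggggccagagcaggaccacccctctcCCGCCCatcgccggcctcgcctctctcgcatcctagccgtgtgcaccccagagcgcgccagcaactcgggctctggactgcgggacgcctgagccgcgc
ITGA4 (chr2:181457136-181457435, + strand): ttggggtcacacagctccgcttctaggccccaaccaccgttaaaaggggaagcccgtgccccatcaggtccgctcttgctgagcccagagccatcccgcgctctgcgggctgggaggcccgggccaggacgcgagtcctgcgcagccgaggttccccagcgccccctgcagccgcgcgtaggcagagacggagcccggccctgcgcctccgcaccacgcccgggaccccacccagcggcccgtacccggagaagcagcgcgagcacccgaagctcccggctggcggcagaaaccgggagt
LAMA5 (chr20:62367263-62367562, - strand): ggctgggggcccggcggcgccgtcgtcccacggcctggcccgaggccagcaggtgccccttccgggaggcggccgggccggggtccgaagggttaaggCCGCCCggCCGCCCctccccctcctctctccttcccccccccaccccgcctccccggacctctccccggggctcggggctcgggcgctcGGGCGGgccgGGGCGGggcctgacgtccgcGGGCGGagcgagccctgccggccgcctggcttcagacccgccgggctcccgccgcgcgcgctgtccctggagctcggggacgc
The ITGA6 window printed holds the E-box and 1 GC box, ITGB8 holds 2 GC boxes, LAMA5 holds 5, and the ITGA4 window holds neither motif. The window of the downstream start of ITGA6, not printed, holds no E-box and 3 GC boxes. The search says nothing of whether any factor was bound.

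All but 2 of the 37 genes had reads in every library. The filter on the mean (at least 1 eRPKM over all libraries) kept 27 of them, which were 12 alpha, 7 beta and 8 laminin chains. It left out ITGA2B, ITGA8, ITGA9, ITGA10, ITGA11, ITGAL, ITGB6, LAMA3, LAMA4 and LAMB4. In siCtrl cells at 48 h, ITGB1 was the most expressed chain, with 116, 115 and 109 eRPKM. Next came ITGA3 (56.6 to 68.7 eRPKM), ITGAV (58.1 to 61.4 eRPKM) and ITGA5 (55.4 to 65.1 eRPKM), whose libraries overlapped, and then ITGB5 (44.9 to 47.0 eRPKM). The laminin chains were led by LAMC1 (35.6 to 42.3 eRPKM), LAMB2 (28.1 to 35.2 eRPKM), LAMB1 (27.5 to 31.5 eRPKM) and LAMB3 (23.7 to 25.8 eRPKM). All laminin alpha chains together measured only 21.0 to 24.6 eRPKM, against 79.2 to 92.5 eRPKM for the beta chains. LAMA3 was nearly silent, with 0.103 to 0.228 eRPKM (12 to 27 reads) over all libraries, although LAMB3, a partner of it in an epithelial laminin, was expressed throughout. Duplicate removal allows 1 read per position and strand, and ITGB1 reached 58.5% of that limit at its highest, above every other member, so its changes are the most compressed.

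**Figure D1:**
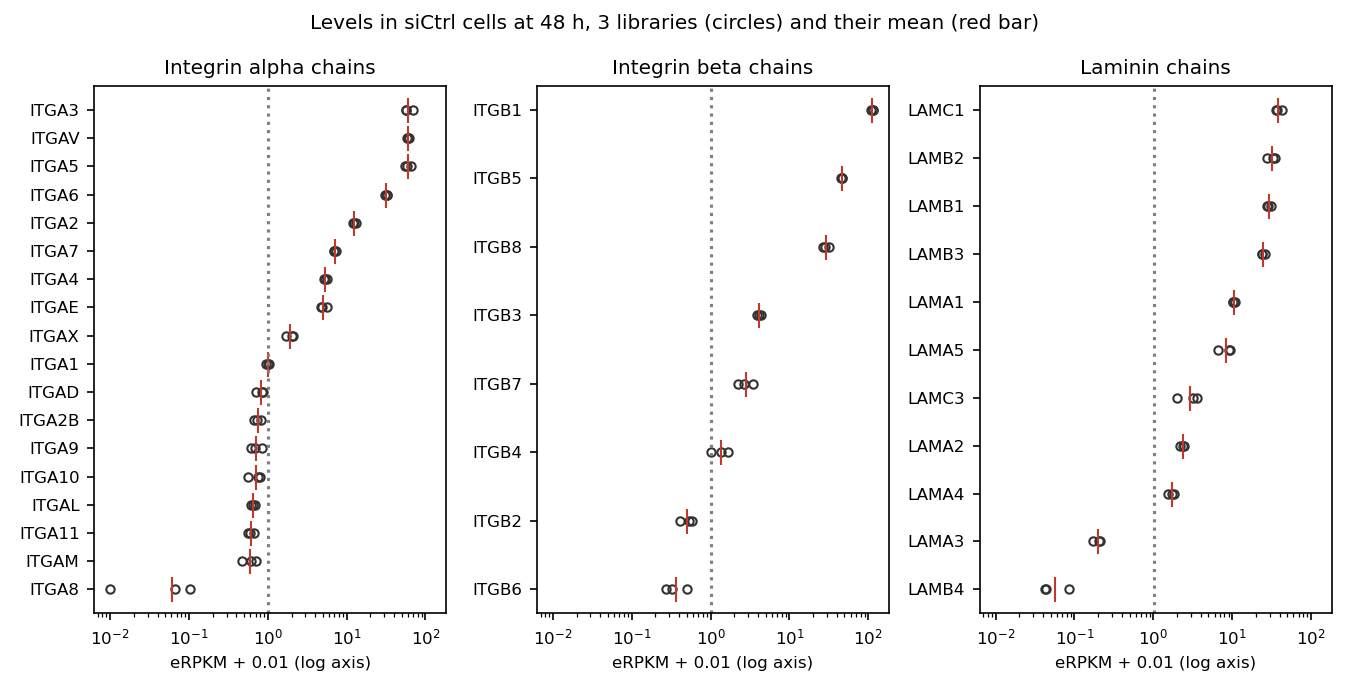
Expression of the 37 integrin and laminin chains in siCtrl cells at 48 h, as eRPKM + 0.01 on a log axis, with 1 circle per library, a red bar at the mean of the 3 libraries and a dotted line at 1 eRPKM. ITGB1 leads at 109 to 116 eRPKM, while LAMA3 sits at 0.161 to 0.203 eRPKM.

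Of the chains called with siRAD21, more rose than fell at both times. At 24 h 5 of the 27 tested chains rose and 0 fell, where 8.43% of all tested genes were called (5.83% higher and 2.60% lower). They were ITGAM, ITGB2, ITGA7, ITGB4 and LAMA5, and without siCtrl 24 h replicate 1 only 3 were called. At 48 h 11 rose (ITGA1, ITGA6, ITGA7, ITGAM, ITGAX, ITGB2, ITGB5, LAMA1, LAMA5, LAMB2 and LAMB3) and 4 fell (ITGA4, ITGAE, ITGB3 and ITGB8), against 23.7% of all tested genes called, 12.6% of them higher and 11.2% lower. The median log2 fold change of the tested chains was 0.26 at 48 h, against -0.01 over all tested genes. Among the 8 tested laminin chains 4 rose and 0 fell at 48 h, and their median was 0.51.

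With OHT in siCtrl cells most chains were not called. At 24 h LAMC3 rose and ITGB3 and ITGB8 fell, 3 of 27 chains, a share near the 8.78% of all tested genes (3.68% higher and 5.10% lower). At 48 h ITGAM and LAMC3 rose, and ITGB3, ITGB4, ITGB8, LAMA2 and LAMB2 fell, 7 of 27 against 17.9% of all tested genes (7.78% higher and 10.1% lower). The median was -0.16 at 48 h, against -0.01 over all genes. In siRAD21 cells more chains were called with OHT, as were more of all tested genes. At 24 h 1 rose (LAMC3) and 6 fell (ITGA1, ITGA7, ITGAX, ITGB3, LAMA5 and LAMB3), against 11.9% of all tested genes (4.29% higher and 7.62% lower). At 48 h 2 rose (ITGA4 and LAMC3) and 9 fell (ITGA3, ITGA7, ITGB2, ITGB3, ITGB4, ITGB8, LAMA5, LAMB2 and LAMB3), against 28.6% of all tested genes (12.4% higher and 16.2% lower). The median was -0.30.

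With both treatments, siRAD21 OHT cells differed from siCtrl cells in 4 chains at 24 h (ITGAM and LAMC3 higher, ITGB3 and ITGB8 lower), where 13.1% of all tested genes were called (6.62% higher and 6.51% lower). The share of the 27 chains called at 24 h was thus near that of all genes. At 48 h 12 chains differed, against 28.0% of all tested genes (13.1% higher and 14.9% lower). ITGA6, ITGAM, ITGAX, ITGB2, LAMA1 and LAMC3 were higher, and ITGA7, ITGAV, ITGB3, ITGB4, ITGB8 and LAMA2 were lower. At each time the comparisons with siCtrl cells share the siCtrl libraries, so the values of a gene in them are not independent. ITGA5, ITGAD, ITGB1, ITGB7 and LAMC1 were called in none of the 12 comparisons made.

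**Figure D2:**
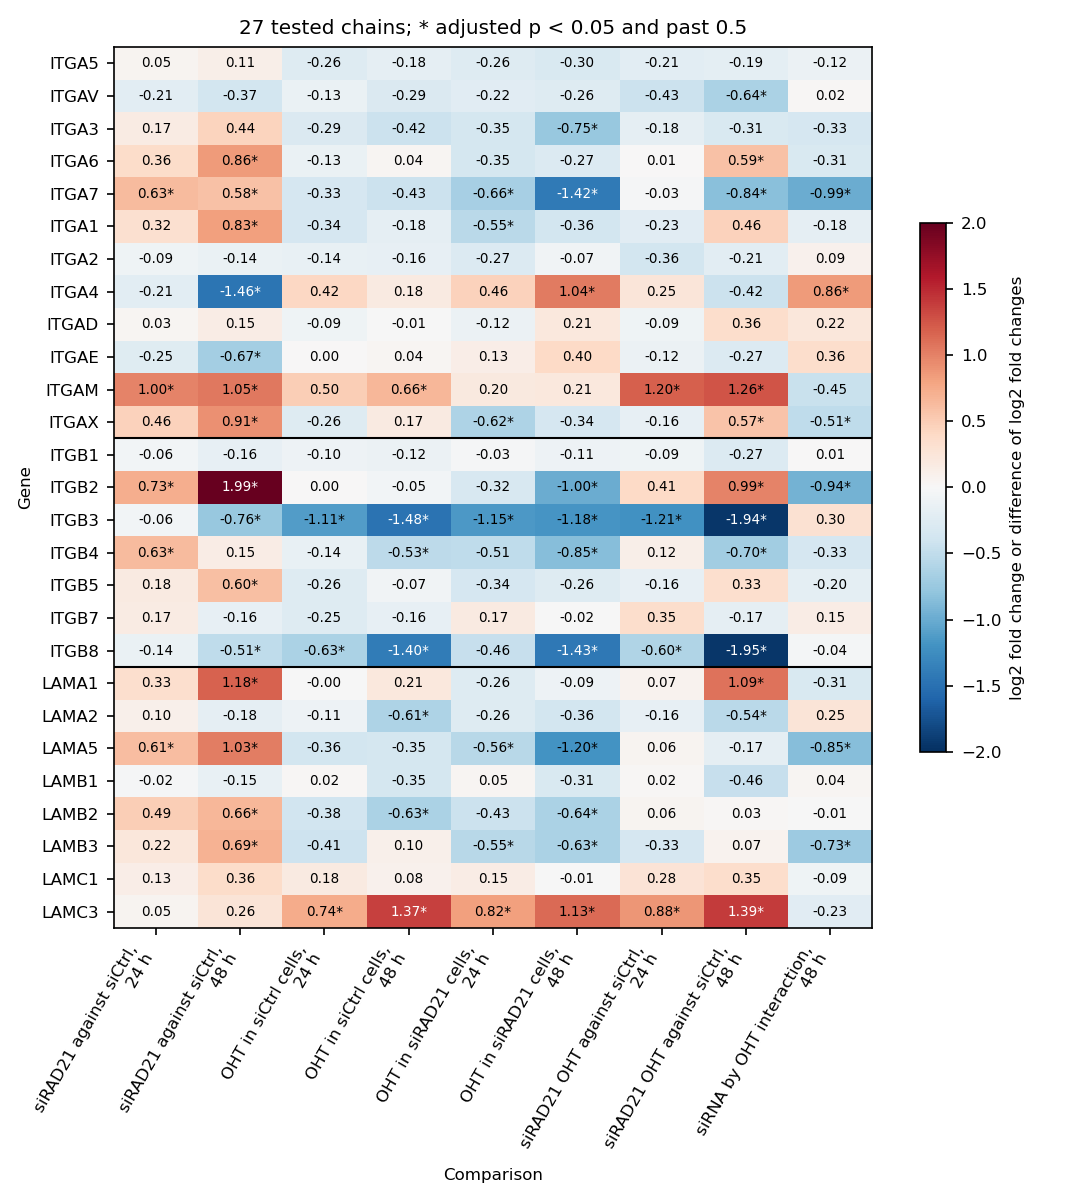
Log2 fold changes of the 27 tested chains (rows) in 8 comparisons, and the difference of log2 fold changes that is the siRNA by OHT interaction at 48 h (last column), on a colour scale from -2 (blue) to 2 (red), with an asterisk where a gene was called. ITGB2 has the largest rise, 1.99 with siRAD21 at 48 h, and ITGB8 and ITGB3 the largest falls, -1.95 and -1.94 with both treatments at 48 h.

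The RGD-binding alpha chains, receptors of fibronectin and vitronectin, held 1 called chain. ITGAV (chr2:187454737-187545628 on GRCh37, + strand), the partner of ITGB3, ITGB5, ITGB6 and ITGB8, was called only where both treatments met, at 48 h. There it measured 60.1, 61.4 and 58.1 eRPKM in siCtrl, 46.3 and 45.8 eRPKM in siRAD21, 48.6, 49.2 and 49.2 eRPKM in siCtrl OHT and 37.7 and 38.9 eRPKM in siRAD21 OHT cells. Each treated group lay below all siCtrl libraries and the siRAD21 OHT libraries lay lowest. With both treatments its log2 fold change against siCtrl was -0.64 (limma, SE 0.041, adjusted p = 1.22e-08), and siRAD21 alone gave -0.37 (adjusted p = 3.40e-06), short of the 0.5 asked. ITGA5, the classical fibronectin receptor chain, had a log2 fold change of 0.11 with siRAD21 at 48 h (95% confidence interval -0.03 to 0.26). ITGA2B, the platelet chain, stayed between 0.406 and 0.814 eRPKM, and ITGA8 was at 0 in 14 of 18 libraries.

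The laminin receptor chains ITGA6 and ITGA7 rose with siRAD21. In siRAD21 cells OHT lowered ITGA7 past the thresholds, while ITGA6 was also lower with OHT but was not called. ITGA6 (chr2:173292082-173371187, + strand), the only gene with an E-box among the 26 with a window, measured 30.7, 32.7 and 32.2 eRPKM in siCtrl, 56.6 and 59.5 eRPKM in siRAD21, 31.1, 33.8 and 33.5 eRPKM in siCtrl OHT and 48.2 and 48.0 eRPKM in siRAD21 OHT cells at 48 h. The siRAD21 libraries lay above all libraries with siCtrl, with or without OHT. Its log2 fold change was 0.86 for siRAD21 (SE 0.043, adjusted p = 1.53e-09 by limma), 0.04 for OHT in siCtrl cells and 0.59 for siRAD21 OHT against siCtrl cells (SE 0.043, adjusted p = 3.57e-08). At 24 h it already stood at 43.6 and 43.5 eRPKM in siRAD21 against 33.7 and 33.9 eRPKM in siCtrl cells, a log2 fold change of 0.36 that did not pass 0.5. The siRAD21 OHT libraries at 24 h, at 33.3 and 35.0 eRPKM, were back near the siCtrl level. At both times they lay below the siRAD21 libraries without OHT.

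ITGA7 (chr12:56078352-56110188, - strand), known as the laminin receptor of muscle, took the opposite course once OHT was added. At 48 h it measured 7.39, 6.82 and 6.98 eRPKM in siCtrl and 11.1 and 10.5 eRPKM in siRAD21 cells. With OHT it measured 5.74, 4.72 and 4.91 eRPKM in siCtrl and 3.94 and 3.53 eRPKM in siRAD21 cells. The siRAD21 libraries were thus the highest without OHT and the lowest with it, and no groups overlapped. By limma the changes at 48 h were 0.58 for siRAD21 (SE 0.093, adjusted p = 1.02e-04), -1.42 for OHT in siRAD21 cells (SE 0.101, adjusted p = 5.67e-08) and -0.84 for siRAD21 OHT against siCtrl cells (SE 0.093, adjusted p = 2.53e-06), and OHT in siCtrl cells gave -0.43, which missed the threshold of size. At 24 h it rose by 0.63 with siRAD21 and fell by 0.66 with OHT in siRAD21 cells. Of its annotated exons 163 bases are shared with BLOC1S1 and METTL7B. ITGA3, which also serves as a laminin receptor, fell with OHT in siRAD21 cells at 48 h (log2 fold change -0.75), from 83.2 and 82.2 eRPKM to 47.9 and 49.8 eRPKM, and had 0.44 with siRAD21 and -0.42 with OHT alone.

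Among the collagen receptor chains ITGA1 was low and ITGA2 moderate. ITGA1 rose with siRAD21 at 48 h, from 0.943 to 1.03 eRPKM in siCtrl to 1.99 and 2.29 eRPKM in siRAD21 cells (log2 fold change 0.83). At 24 h it fell with OHT in siRAD21 cells (-0.55), a call that was lost without siRAD21 24 h replicate 1 (-0.51) or siRAD21 OHT 24 h replicate 2 (-0.43). Of the annotated ITGA1 exons 499 of 18545 bases are shared with PELO. ITGA2 was called in no treatment comparison but was higher in siCtrl cells at 48 h (12 to 13 eRPKM) than at 24 h (5.97 and 7.71 eRPKM), by 0.83. ITGA10 stayed between 0.547 and 1.25 eRPKM and ITGA11 between 0.162 and 0.655 eRPKM.

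ITGA4 (chr2:182321929-182403667, + strand), the chain by which cells bind VCAM1 and fibronectin, had the largest fall with siRAD21 of all the tested chains, and OHT raised it in siRAD21 cells. At 48 h it measured 5.13, 5.23 and 5.64 eRPKM in siCtrl and 1.65 and 1.58 eRPKM in siRAD21 cells. With OHT it measured 5.72, 6.21 and 6.44 eRPKM in siCtrl and 4.30 and 3.44 eRPKM in siRAD21 cells. Neither siRAD21 group overlapped a siCtrl group, and the siRAD21 OHT libraries lay between siRAD21 and siCtrl. By limma the log2 fold change was -1.46 for siRAD21 (SE 0.100, adjusted p = 3.03e-08), 1.04 for OHT in siRAD21 cells (SE 0.110, adjusted p = 2.26e-06) and -0.42 for siRAD21 OHT against siCtrl cells (adjusted p = 0.0023), which is not past 0.5. At 24 h the values were 3.94 and 4.77 eRPKM in siCtrl and 3.74 and 3.61 eRPKM in siRAD21 cells. With OHT at 24 h they were 5.63 and 6.32 eRPKM in siCtrl and 5.17 and 5.32 eRPKM in siRAD21 cells. Both OHT groups thus lay above their groups without OHT at 24 h, but neither change was called. The effect of siRAD21 on ITGA4 at 48 h was lower than at 24 h by 1.25 on the log2 scale (adjusted p = 6.09e-05 by limma). Of its annotated exons 2813 of 10654 bases are shared with CERKL, and the counting was not stated to use strand, so reads of the shared bases cannot be assigned to either gene. ITGA9, its closest relative, stayed between 0.188 and 0.828 eRPKM.

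The alpha chains of the leukocyte integrins were present at low levels. ITGAE (chr17:3617922-3704482, - strand), a receptor chain for E-cadherin on T cells, was the highest of them in siCtrl cells and fell with siRAD21 at 48 h. It measured 4.70, 5.63 and 4.81 eRPKM in siCtrl, 2.97 and 2.97 eRPKM in siRAD21, 4.94, 5.35 and 5.31 eRPKM in siCtrl OHT and 4.48 and 3.71 eRPKM in siRAD21 OHT cells. The siRAD21 libraries lay below all others at 48 h. Its fall amounted to -0.67 on the log2 scale (SE 0.087, adjusted p = 1.50e-05 by limma), and OHT in siRAD21 cells gave 0.40, within the threshold of size. ITGAM rose with siRAD21 at both times (1.0 at 24 h and 1.05 at 48 h), with OHT in siCtrl cells at 48 h (0.66) and with both (1.20 and 1.26), from 0.458 to 0.709 eRPKM in siCtrl to 2.02 and 2.18 eRPKM in siRAD21 OHT cells at 48 h. ITGAX rose with siRAD21 at 48 h (0.91), was higher with both treatments (0.57) and fell with OHT in siRAD21 cells at 24 h (-0.62). The call with both treatments was lost without siCtrl 48 h replicate 2, at 0.50. ITGAL stayed between 0.389 and 0.792 eRPKM and ITGAD at 0.503 to 1.35 eRPKM, while PTPRC and CD3E were near 0.

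The beta chains held the largest log2 fold changes among the tested chains. ITGB8 (chr7:20370325-20455377, + strand) fell with OHT, with siRAD21 and, most of all, with both. At 48 h it measured 31.6, 28.2 and 26.6 eRPKM in siCtrl, 20.3 and 19.6 eRPKM in siRAD21, 11.5, 10.0 and 10.3 eRPKM in siCtrl OHT and 6.70 and 7.44 eRPKM in siRAD21 OHT cells. The 4 groups did not overlap, in that order from high to low. The log2 fold changes at 48 h by limma were -0.51 for siRAD21 (SE 0.101, adjusted p = 6.16e-04), -1.40 for OHT in siCtrl cells (SE 0.091, adjusted p = 2.74e-08), -1.43 for OHT in siRAD21 cells (SE 0.111, adjusted p = 1.18e-07) and -1.95 for siRAD21 OHT against siCtrl cells (SE 0.101, adjusted p = 1.36e-09). The fall with siRAD21 is just past 0.5 and was no longer called without siCtrl 48 h replicate 1 (-0.45) or siRAD21 48 h replicate 2 (-0.49), or after quantile normalization (-0.48). The interaction of siRAD21 and OHT was -0.04 (95% confidence interval -0.35 to 0.27). At 24 h the siCtrl libraries stood at 10.8 and 14.3 eRPKM and those with OHT at 7.99 and 7.78 eRPKM, a log2 fold change of -0.63 that was no longer called without siCtrl 24 h replicate 2 (-0.43), as was the fall with both treatments (-0.60, then -0.40). In siCtrl cells ITGB8 rose between 24 and 48 h by 1.17.

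ITGB3 (chr17:45331193-45391109, + strand), the vitronectin receptor chain, followed the same order at lower levels. It measured 4.40, 3.87 and 4.08 eRPKM in siCtrl, 2.21 and 2.24 eRPKM in siRAD21, 1.01, 1.09 and 1.38 eRPKM in siCtrl OHT and 0.525 and 0.903 eRPKM in siRAD21 OHT cells at 48 h. Again the groups did not overlap. The log2 fold changes at 48 h were -0.76 for siRAD21, -1.48 for OHT in siCtrl cells, -1.18 for OHT in siRAD21 cells and -1.94 for both (adjusted p = 1.26e-07 by limma for the last). With OHT it fell at 24 h as well, by 1.11 in siCtrl and 1.15 in siRAD21 cells on the log2 scale.

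ITGB5 (chr3:124480795-124620265, - strand), another partner of ITGAV, went the other way with siRAD21. It measured 47.0, 46.9 and 44.9 eRPKM in siCtrl, 70.2 and 70.1 eRPKM in siRAD21, 44.7, 44.9 and 42.7 eRPKM in siCtrl OHT and 57.8 and 58.8 eRPKM in siRAD21 OHT cells at 48 h. All 4 siRAD21 libraries lay above all 6 siCtrl libraries. By limma this was a log2 fold change of 0.60 for siRAD21 (SE 0.047, adjusted p = 1.12e-07), -0.07 for OHT in siCtrl cells (95% confidence interval -0.16 to 0.02) and -0.26 for OHT in siRAD21 cells, which is within 0.5. Of the summed eRPKM of the 8 beta chains, ITGB5 made up 23.5% in siCtrl and 34.9% in siRAD21 cells at 48 h, ITGB8 14.6% and 9.92%, and ITGB1 57.3% and 50.2%.

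ITGB2, the beta chain that ITGAD, ITGAL, ITGAM and ITGAX share, had the largest rise with siRAD21. At 48 h it measured 0.573, 0.402 and 0.517 eRPKM in siCtrl, 3.95 and 3.01 eRPKM in siRAD21, 0.393, 0.546 and 0.440 eRPKM in siCtrl OHT and 1.38 and 1.58 eRPKM in siRAD21 OHT cells. Its log2 fold change was 0.73 at 24 h and 1.99 at 48 h (adjusted p = 2.70e-08 by limma), OHT in siRAD21 cells gave -1.0, and with both treatments it was 0.99 against siCtrl cells. In siCtrl cells it fell from 1.22 and 1.52 eRPKM at 24 h, with a log2 fold change of -0.90 at 48 h. ITGB2-AS1, an antisense RNA that shares 303 bases of annotated exon with it, moved in the same comparison, from 0.584 to 1.01 eRPKM in siCtrl to 3.81 and 4.29 eRPKM in siRAD21 cells at 48 h. The library kit named by the study does not mark strand, so reads of the shared bases cannot be told apart.

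ITGB4, which pairs with ITGA6 in hemidesmosomes, stayed between 0.502 and 2.13 eRPKM. It rose with siRAD21 at 24 h (0.63) and fell with OHT at 48 h in siCtrl (-0.53) and siRAD21 cells (-0.85), and with both (-0.70). The rise at 24 h was lost on leaving out any of the 4 libraries compared, at 0.52 to 0.73, and the fall in siCtrl cells without siCtrl 48 h replicate 1 (-0.40) or siCtrl OHT 48 h replicate 2 (-0.36). ITGB1 had -0.16 with siRAD21 at 48 h and -0.12 with OHT, both with an adjusted p below 0.05 but far within 0.5. ITGB7 stayed between 1.74 and 3.59 eRPKM and ITGB6 below 0.580 eRPKM. Of the annotated ITGB7 exons 1881 of 4451 bases are shared with ZNF740, so reads of the shared bases cannot be assigned to either gene.

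**Figure D3:**
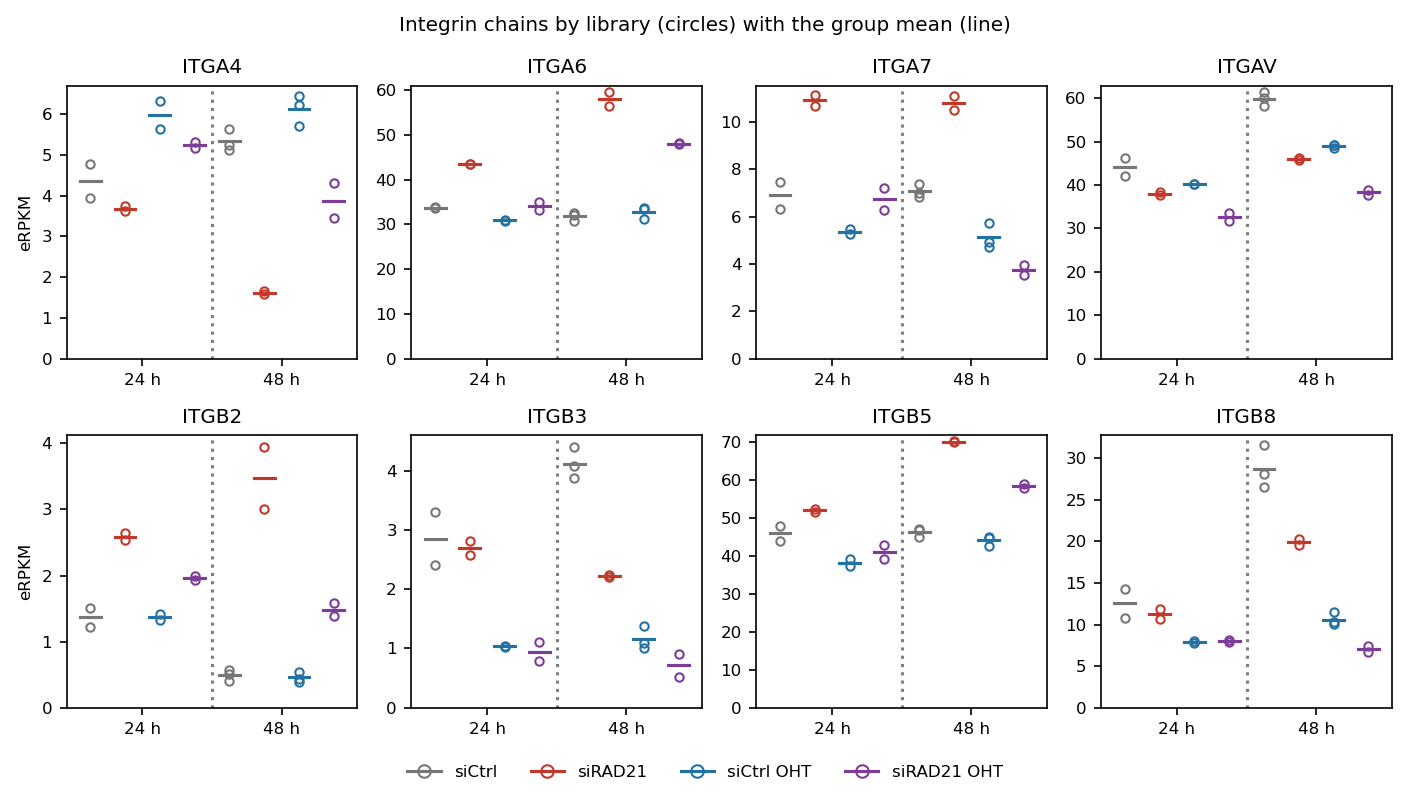
eRPKM of 8 integrin chains on linear axes from 0, by time and group, with 1 circle per library and a line at the group mean. ITGB8 falls from 26.6 to 31.6 in siCtrl to 6.70 and 7.44 in siRAD21 OHT cells at 48 h, while ITGA4 is lowest in siRAD21 cells without OHT, at 1.58 and 1.65.

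The laminin alpha chains that rose with siRAD21 were LAMA1 and LAMA5, and they parted when OHT was added. LAMA1 (chr18:6941741-7117796, - strand), the alpha chain of early embryonic basement membranes, measured 10.4, 10.2 and 10.8 eRPKM in siCtrl, 24.8 and 23.9 eRPKM in siRAD21, 13.4, 12.1 and 11.2 eRPKM in siCtrl OHT and 23.0 and 22.5 eRPKM in siRAD21 OHT cells at 48 h. All siRAD21 libraries lay above all siCtrl libraries, with OHT or without. The log2 fold change was 1.18 for siRAD21 (SE 0.069, adjusted p = 6.10e-09 by limma), 1.09 for siRAD21 OHT against siCtrl cells (SE 0.069, adjusted p = 8.90e-09) and -0.09 for OHT in siRAD21 cells. At 24 h it stood at 13.8 and 14.3 eRPKM in siRAD21 against 10.5 and 11.7 eRPKM in siCtrl cells, and the effect of siRAD21 was larger at 48 h by 0.85 (adjusted p = 6.08e-05 by limma).

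LAMA5 (chr20:60883011-60942368, - strand), the most widespread alpha chain of adult tissues, measured 9.14, 6.58 and 9.44 eRPKM in siCtrl and 19.4 and 15.6 eRPKM in siRAD21 cells at 48 h. With OHT it measured 7.28, 5.60 and 6.38 eRPKM in siCtrl and 7.58 and 7.01 eRPKM in siRAD21 cells. The siRAD21 OHT libraries lay within the range of siCtrl cells. LAMA5 had a log2 fold change of 1.03 for siRAD21 (SE 0.140, adjusted p = 2.45e-05 by limma), -1.20 for OHT in siRAD21 cells (SE 0.153, adjusted p = 1.33e-05) and -0.17 for siRAD21 OHT against siCtrl cells (95% confidence interval -0.47 to 0.13). At 24 h it rose by 0.61 with siRAD21, a call lost without siCtrl 24 h replicate 1 or siRAD21 24 h replicate 2, and fell by 0.56 with OHT in siRAD21 cells, a call lost without siRAD21 24 h replicate 2 or siRAD21 OHT 24 h replicate 2. Its annotated exons share 244 bases with ADRM1.

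LAMA2, the alpha chain of muscle laminin, fell with OHT at 48 h in siCtrl cells, from 2.20 to 2.45 eRPKM to 1.14 to 1.51 eRPKM (-0.61), and was lower with both treatments (-0.54). LAMA4, an alpha chain of vessel walls, was below the filter. It measured 1.53, 1.83 and 1.73 eRPKM in siCtrl, 0.220 and 0.322 eRPKM in siRAD21, 1.33, 1.01 and 1.22 eRPKM in siCtrl OHT and 0.314 and 0.566 eRPKM in siRAD21 OHT cells at 48 h. The siRAD21 groups lay below all siCtrl libraries. At 24 h all groups lay between 0.297 and 0.528 eRPKM.

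Of the beta chains of laminin, LAMB2 and LAMB3 rose with siRAD21. LAMB2 (chr3:49158547-49170551, - strand), found in the laminins of kidney and synapse, measured 35.2, 28.1 and 33.3 eRPKM in siCtrl, 51.8 and 50.2 eRPKM in siRAD21, 22.0, 19.3 and 20.5 eRPKM in siCtrl OHT and 32.0 and 33.2 eRPKM in siRAD21 OHT cells at 48 h. The siRAD21 libraries were highest, the siCtrl OHT libraries lowest, and the siRAD21 OHT libraries lay within the siCtrl range. On the log2 scale LAMB2 changed by 0.66 for siRAD21 (SE 0.077, adjusted p = 5.43e-06 by limma), -0.63 for OHT in siCtrl cells (SE 0.069, adjusted p = 3.76e-06) and -0.64 for OHT in siRAD21 cells (SE 0.084, adjusted p = 1.84e-05). The interaction was -0.01 (95% confidence interval -0.24 to 0.23).

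LAMB3 (chr1:209788215-209825770, - strand), an epithelial beta chain, measured 25.8, 23.7 and 24.1 eRPKM in siCtrl, 40.7 and 39.2 eRPKM in siRAD21, 29.3, 26.5 and 23.4 eRPKM in siCtrl OHT and 24.7 and 26.7 eRPKM in siRAD21 OHT cells at 48 h. At 48 h only siRAD21 cells without OHT stood apart. LAMB3 had a log2 fold change of 0.69 for siRAD21 (SE 0.072, adjusted p = 1.79e-06 by limma), -0.63 for OHT in siRAD21 cells (SE 0.079, adjusted p = 1.14e-05) and 0.10 for OHT in siCtrl cells (95% confidence interval -0.04 to 0.24). At 24 h it was lower with OHT in both siRNA backgrounds, without overlap, though called only in siRAD21 cells. It then measured 35.3 and 36.7 eRPKM in siCtrl and 26.4 and 27.7 eRPKM in siCtrl OHT cells. The siRAD21 libraries stood at 41.6 and 42.5 eRPKM without OHT and 27.9 and 29.2 eRPKM with it. LAMB1, the most common beta chain, was called in no treatment comparison and rose between 24 and 48 h in siCtrl cells by 0.91, from 14.2 and 16.3 eRPKM to 27.5 to 31.5 eRPKM. LAMB4 reached at most 0.0747 eRPKM.

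Of the gamma chains, LAMC3 (chr9:133884561-133969860, + strand), a gamma chain known from the brain surface and retina, was the only tested chain that rose with OHT in both siRNA backgrounds and at both times. At 48 h it measured 3.53, 1.98 and 3.19 eRPKM in siCtrl, 3.29 and 3.70 eRPKM in siRAD21, 9.77, 7.28 and 7.49 eRPKM in siCtrl OHT and 8.15 and 8.37 eRPKM in siRAD21 OHT cells. Libraries with and without OHT did not overlap, and siRAD21 and siCtrl libraries of the same treatment overlapped. At 24 h it measured 5.44 and 5.78 eRPKM in siCtrl, 6.18 and 5.52 eRPKM in siRAD21, 9.73 and 9.64 eRPKM in siCtrl OHT and 10.7 and 10.7 eRPKM in siRAD21 OHT cells. The log2 fold change with OHT at 48 h was 1.37 in siCtrl (SE 0.147, adjusted p = 3.28e-06 by limma) and 1.13 in siRAD21 cells (SE 0.180, adjusted p = 9.68e-05), and at 24 h it was 0.74 and 0.82. With both treatments it was 1.39 against siCtrl cells at 48 h (SE 0.165, adjusted p = 4.86e-06), and siRAD21 alone gave 0.26 (95% confidence interval -0.09 to 0.61). LAMC1, the gamma chain of most laminins, had 0.36 with siRAD21 at 48 h, within 0.5.

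**Figure D4:**
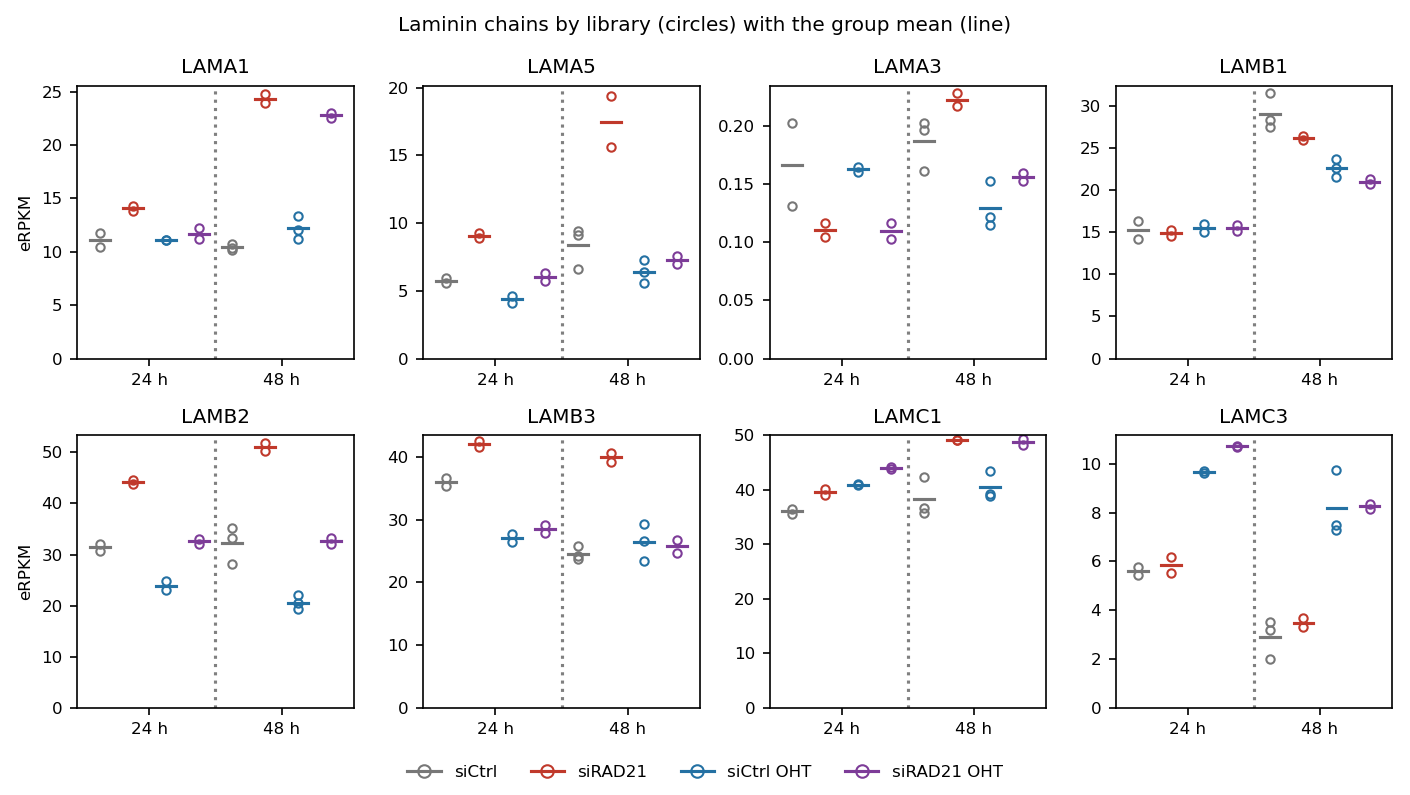
eRPKM of 8 laminin chains on linear axes from 0, by time and group, with 1 circle per library and a line at the group mean. LAMA1 stays at 22.5 to 24.8 in siRAD21 cells at 48 h with and without OHT, whereas LAMA5 drops from 15.6 and 19.4 to 7.01 and 7.58 with OHT, and LAMC3 is higher in every library with OHT.

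The make-up of each class shifted with these changes. Summed over all laminin alpha chains, the level was 21.0 to 24.6 eRPKM in siCtrl and 41.8 to 46.9 eRPKM in siRAD21 cells at 48 h, and 31.7 and 32.5 eRPKM in siRAD21 OHT cells. LAMA1 made up 45.4% of it in siCtrl, 55.0% in siRAD21 and 70.9% in siRAD21 OHT cells. LAMA5 made up 36.2%, 39.3% and 22.7%. Among the integrin alpha chains ITGAV went from 24.0% in siCtrl to 15.9% in siRAD21 cells, and ITGA6 from 12.8% to 19.6 and 20.5% in the 2 libraries. These shares are of summed eRPKM and say nothing of which chains were paired in protein.

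**Figure D5:**
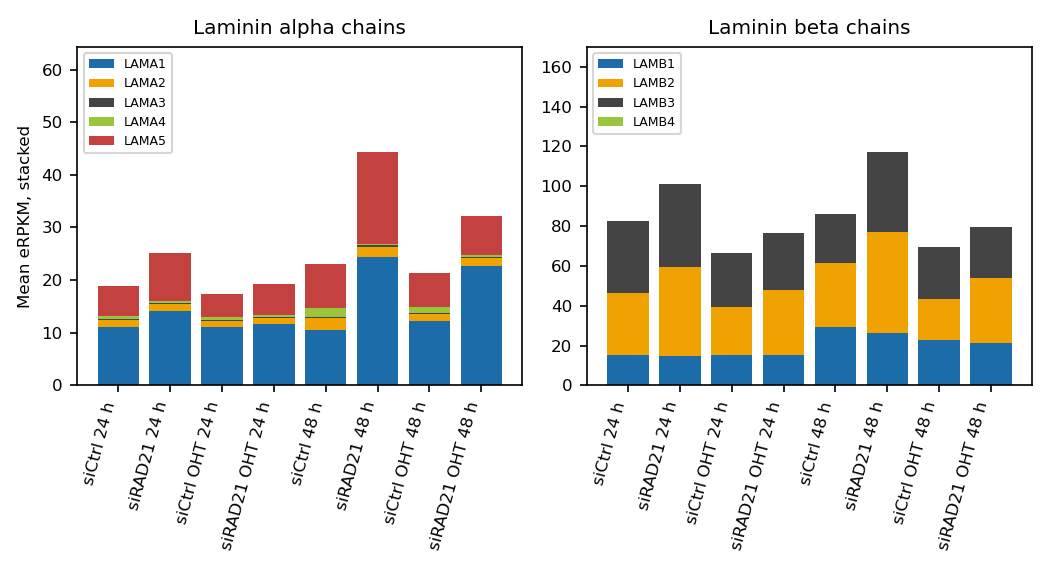
Mean eRPKM of the laminin alpha and beta chains in each of the 8 groups, stacked by chain on linear axes from 0. The alpha chains reach their highest sum in siRAD21 cells at 48 h, where LAMA1 and LAMA5 both rise.

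Whether OHT acted differently after siRAD21 was tested as the interaction, the log2 fold change with OHT in siRAD21 cells minus that in siCtrl cells. At 24 h limma called 0 of the 27 chains and 0 genes in all (0%), with 906 genes and 4 chains at an unadjusted p below 0.05, and voom on the recovered reads called 19 genes. The lowest adjusted p of a chain was 0.49. At 48 h 6 chains were called, against 7.30% of all tested genes (3.33% higher and 3.97% lower). ITGA4 was the only positive value, 0.86 (adjusted p = 0.0011 by limma), since OHT raised it in siRAD21 cells and gave 0.18 in siCtrl cells. The negative values were -0.99 for ITGA7, -0.94 for ITGB2, -0.85 for LAMA5, -0.73 for LAMB3 and -0.51 for ITGAX. Of these, LAMA5 was no longer called without siRAD21 48 h replicate 1 (-0.70), and ITGAX was lost without siCtrl 48 h replicate 2 (-0.44), siCtrl OHT 48 h replicate 1 (-0.49), siRAD21 48 h replicate 1 (-0.43) or siRAD21 OHT 48 h replicate 1 (-0.48). ITGB3 (0.30, 95% confidence interval -0.18 to 0.79) and LAMC3 (-0.23, -0.73 to 0.27) were not called.

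The effect of siRAD21 differed between 48 and 24 h for 4 chains, against 10.7% of all tested genes (3.85% higher and 6.86% lower). ITGB2 (1.26) and LAMA1 (0.85) were higher at 48 h and ITGA4 (-1.25) and ITGB3 (-0.70) lower. The call of ITGB3 was lost on leaving out any of the libraries compared other than siCtrl 24 h replicate 2, at -0.51 to -0.76. In siCtrl cells alone 7 chains differed between the times, against 12.4% of all tested genes (5.53% higher and 6.91% lower), ITGA2, ITGB8, LAMA2 and LAMB1 higher at 48 h and ITGB2, LAMB3 and LAMC3 lower. These cells grew for 24 h longer, so time in culture and time since transfection cannot be told apart.

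The lists of genes around the integrins are set beside all tested genes, of which 12.6% were higher and 11.2% lower with siRAD21 at 48 h, 7.78% and 10.1% with OHT in siCtrl cells, and 12.4% and 16.2% with OHT in siRAD21 cells. Of 34 tested adhesion adaptors and kinases, which link integrin tails to actin and signalling, 6 rose and 4 fell with siRAD21 at 48 h, shares near those of all genes, led by PARVA (1.20), a parvin that binds integrin-linked kinase, and LPXN (1.12), a paxillin relative, and by NEDD9 (-1.03), a scaffold of focal adhesions, and TLN2 (-0.94), a talin. With OHT in siCtrl cells at 48 h 1 rose, FERMT1 (1.47), a kindlin that activates integrins, and 5 fell, with TGFB1I1 (-0.66) and TLN2 (-0.65) ahead. In siRAD21 cells OHT raised 2 and lowered 13 of them. Of 24 tested partners of laminin in the basement membrane and its other receptors, 8 rose and 3 fell with siRAD21, the latter a share near that of all genes. NTN4 (2.43), a netrin that binds laminin, and COL17A1 (1.70), a hemidesmosome collagen, rose most, and SMOC1 (-2.85), a calcium-binding matrix protein, and FREM2 (-1.16), of the Fraser complex, fell most. With OHT COL17A1 rose (1.21), and 3 fell, among them COL4A5 (-1.22), a chain of collagen IV, and FREM2 (-0.88), while in siRAD21 cells OHT raised 1 and lowered 11.

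Of 32 integrin ligands 19 were tested. With siRAD21 at 48 h 2 rose, VTN (vitronectin, 0.81) and FBN2 (a fibrillin, 0.77), and 5 fell, with L1CAM (-1.56), a neural adhesion molecule, and THBS1 (-0.99), thrombospondin, ahead, against 12.6% higher and 11.2% lower among all tested genes. With OHT 0 rose and 9 fell in siCtrl cells at 48 h, with SPP1 (osteopontin, -1.48) and LTBP1 (a binding protein of latent TGF-beta, -1.17) ahead, and 0 rose and 12 fell in siRAD21 cells. The background of all tested genes in these comparisons was 10.1% lower with OHT in siCtrl cells and 16.2% lower with OHT in siRAD21 cells. The median log2 fold change of the tested ligands was -0.41 and -0.75, against -0.16 and -0.30 for the integrin and laminin chains and about 0 over all genes.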

How the data were processed

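The 18 libraries were grouped by the siRNA, OHT and time in their labels. The authors removed ribosomal RNA, trimmed reads at a quality of 20, mapped them on hg19 (TopHat2), discarded PCR duplicates and deposited RPKM over exons (eRPKM) for 23399 genes, the unit used here. The submitters' processing notes name TopHat2 2.0.8 and featureCounts 1.4.5. Their method for DEGs was DESeq2, and its thresholds were kept.

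The integrin and laminin genes, the lists and the named genes were chosen with earlier results of these data known. Values in every library and full statistics were given for chains that reached a mean of 5 eRPKM in any group and were called in siRAD21, OHT or siRAD21 OHT against siCtrl cells at 48 h (12 chains), other called chains with a value, and of each pathway list the genes with the largest rises and falls. ITGB2, ITGB3 and LAMA4 were described library by library after their values were seen. Tests were run in limma 3.58.1 (R 4.3.3) on log2 values of eRPKM + 0.5, with 8 group means and a variance trend, over genes with a mean of at least 1 eRPKM. Depths came from genes for which steps of 1 read could be read off (443 to 562 per library), and whole reads (within 0.01) were recovered for all genes. The procedure was tested on simulated data.

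Alternatives were a pseudocount of 1, no filter, quantile normalization, only the groups compared, a replicate block, no variance trend, averaging the siRAD21 OHT 48 h libraries, voom on recovered reads and leaving out each library. Undoing the duplicate limit was chosen after seeing the data. Replicate numbers of siCtrl and siCtrl OHT at 48 h deviated together (r = 0.258, 0.130 and 0.157). Those of siRAD21 at 48 h did so to a like degree with siCtrl OHT (0.168 and 0.111) and siCtrl (0.099 and 0.146). The main fit used no pairing. The replicate block, by replicate number over all groups, was run only as an alternative. Positions and exons came from GENCODE on GRCh37. Figures were drawn with Python 3.11.15 and matplotlib 3.10.9. The binding data of the study were not analysed here, and no protein sequences were used here. A chain and a marker are not reported here and enter no count of chains or markers.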

Additional observations from a re-analysis of the deposited data

Results flagged for a closer look

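Among the 27 tested integrin and laminin chains, 6 had an effect of OHT at 48 h that differed between siRAD21 and siCtrl cells. This was by the interaction test of limma, which called 7.30% of all tested genes. The difference of log2 fold changes was 0.86 for ITGA4, -0.99 for ITGA7, -0.51 for ITGAX, -0.94 for ITGB2, -0.85 for LAMA5 and -0.73 for LAMB3. The effect of siRAD21 differed between 48 and 24 h in 4 of the tested chains, against 10.7% of all tested genes, ITGA4 and ITGB2 among them again. The differences were -1.25 for ITGA4, 1.26 for ITGB2, -0.70 for ITGB3 and 0.85 for LAMA1. The interaction calls of LAMA5 and ITGAX and the ITGB3 call over time were lost on leaving out some libraries, as given above. Beside ITGB2 stands ITGB2-AS1, which was higher in siRAD21 cells already at 24 h, at 5.13 and 6.10 eRPKM against 0.955 and 1.11 eRPKM in siCtrl cells, and its part in the ITGB2 values was not tested.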

How the results depend on the processing

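No call of a named gene changed direction under any alternative. Of 110 called values (named genes in each comparison), 12 fell short of a threshold after quantile normalization, 7 with a pseudocount of 1, 2 in fits of only the groups compared, 1 with no filter, and 0 with no variance trend, with voom on recovered reads or with the duplicate limit undone. With the replicate block 2 of 110 were lost, ITGB3 for siRAD21 at 48 h minus 24 h (-0.66) and LAMB3 in siCtrl cells at 48 h against 24 h (-0.50), and the block changed no other call. It left 5 and 15 chains called for siRAD21 at 24 and 48 h, as without pairing.

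The count of chains whose siRAD21 effect differed between 48 and 24 h went from 4 to 8 after quantile normalization and to 7 with the duplicate limit undone, and that for OHT in siCtrl cells at 24 h from 3 to 5 with voom on recovered reads, and the cause was not tested. Leaving out each library in turn gave 3 to 5 called chains for siRAD21 at 24 h and 14 to 15 at 48 h, 3 to 4 for OHT in siCtrl cells at 24 h and 6 to 9 at 48 h, and 5 to 7 and 11 to 12 for OHT in siRAD21 cells. It gave 4 to 5 and 11 to 13 for siRAD21 OHT against siCtrl cells, 0 and 4 to 6 for the interaction, 3 to 5 for siRAD21 at 48 h minus 24 h and 7 to 10 for siCtrl cells over time. In these, 30 of 580 called values were lost. Where a group was left with 1 library, that library was assumed to vary like the other groups. Depth limits the chains under 1 eRPKM most, where ITGA8 had at most 3 reads and LAMB4 at most 5. The limits of the duplicate removal bear most on ITGB1.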

Other observations

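LAMA4 lay below the filter on the mean. In a fit of all genes with no filter its log2 fold change with siRAD21 at 48 h was -1.51 (adjusted p = 1.28e-06 by limma), the effect of siRAD21 at 48 h was lower than at 24 h by 1.39 on the log2 scale, and the interaction with OHT at 48 h was 0.66. ITGA11 had -0.91 for the effect of siRAD21 at 48 h minus that at 24 h in the same fit, and at 48 h it was lower with siRAD21 (-0.52) and with both treatments (-0.60), with no overlap of the libraries. ITGB6 was lower with OHT in siRAD21 cells at 24 h (-0.53) and 48 h (-0.59), also with no overlap. Both were near the floor, with 8 to 33 reads per library for ITGA11 and 3 to 21 for ITGB6. With so few libraries a lack of overlap says little. LAMA4 with both treatments at 48 h had -1.24. In siCtrl cells LAMA4 (1.12) and ITGA11 (0.50) were higher at 48 h than at 24 h. ITGA9 was lower with OHT in siCtrl cells at 48 h in that fit (-0.53), but its libraries overlapped, at 0.188 to 0.636 eRPKM against 0.594 to 0.828 eRPKM.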
